A study of Mus musculus with 12 samples.

Results

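The genes described here encode the proteasome, its regulators and its assembly factors, and they were taken as every transcript cluster whose platform symbol begins with Psm, then a letter from a to g, then a digit. The pattern matched 50 transcript clusters, 1 for each of 50 genes, of 19505 genes with a symbol on the array. Of these, 48 were proteasome genes and 2 were not subunits: Psmc3ip, a factor of meiotic recombination, and Psme3ip1, which binds the activator Psme3. The rule used no measured value.

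RNA of S100β-v-erbB/p53-/- TSC1 cells, a mouse line of the FVB-NJ strain, was measured on Clarion S arrays in 4 groups of 3 arrays. The groups were DMSO in normoxia, DMSO in hypoxia, BFA (brefeldin A) in hypoxia and EHT-1864 in hypoxia, each for 16 h. The treatment protocol puts the BFA dose at 1 µM, while the series title has 0.1 µM for it, and EHT-1864 was used at 1 µM; the solvent DMSO is the control. Every group carries the v-erbB oncogene under the S100β promoter and lacks p53, so no group shows the genes in cells with p53, and the line stands for no other. The design text speaks of 3 independent cultures, but the labels do not tie arrays of the same number to a culture, so the p-values measure the spread between arrays, which may be partly technical. BFA stops proteins from leaving the endoplasmic reticulum for the Golgi, and EHT-1864 inhibits Rac GTPases.

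The proteasome degrades proteins tagged with ubiquitin. Its barrel-shaped core, the 20S particle, has outer rings of alpha subunits (Psma genes) and inner rings of beta subunits (Psmb genes), of which Psmb5, Psmb6 and Psmb7 cut peptide bonds; a 19S cap of ATPases (Psmc genes) and other subunits (Psmd genes) binds, unfolds and feeds in the substrate. Assembly factors (Psmg genes, Psmd5, Psmd9, Psmd10) build the particles and other activators (Psme genes) can replace the cap, and when proteasome activity falls short, cells raise these genes together, largely through the transcription factor Nfe2l1.

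The deposited signal is a log2 value, so a difference of 1 is a doubling. A signal was counted as above background when it exceeded the 95th percentile of the 5222 negative control probes of its array. By that measure 41 of the 50 genes were above background on all 12 arrays, and 5 were above it on no array: Psma8 (a testis form), Psmb11 (a thymus form), the inducible Psmb8 and Psmb9, and the assembly factor Psmg3. The 30 measured constitutive subunits, 7 alpha, 6 beta, 6 ATPases and 11 other cap subunits, were all among the 41. Psmb5 and the ubiquitin receptor Adrm1 were not analysed here.

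The arrays were not alike in their technical measures. The background level was 5.61 ± 0.02 on the normoxia and 5.61 ± 0.02 on the hypoxia DMSO arrays, 6.49 ± 0.14 on the BFA arrays and 6.01 ± 0.13 on the EHT-1864 arrays (log2, mean ± SD, n = 3). The hybridization controls moved with it, at 9.85 ± 0.06, 9.76 ± 0.06, 10.93 ± 0.12 and 10.25 ± 0.07. The SD of the log2 signals of all clusters on an array was 2.48 ± 0.02, 2.51 ± 0.01, 2.28 ± 0.05 and 2.41 ± 0.03 in the same order. The compound arrays stood apart in all 3 measures, and the part of this in the results for the compounds was not tested. Of the marker genes, 8 of 9 for microglia and 8 of 8 for endothelium were below background on all 12 arrays, while Olig1, Olig2, Sox2, Sox10, Cspg4, Nes, Fabp7 and S100b of the glial progenitor list were above it on all 12. Of the 10 progenitor genes measured, 7 fell with BFA and 7 with EHT-1864, beside 24.6% and 17.4% of all clusters. The mean signal of the 10 was 9.30 to 9.35 over the DMSO arrays, 7.40 to 7.45 with BFA and 8.55 to 8.66 with EHT-1864. The 10 include Gfap and Aldh1l1, which were below background on all 12 arrays. In bulk RNA, fewer cells of a type and less RNA per cell cannot be told apart.

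Promoters of 4 members are shown: Psmd14 and Psmd4 rose most with EHT-1864 and Psmb4 rose most with BFA, and Psmb6 is the measured catalytic subunit that rose with both. Each runs from 250 bases before to 50 after the gene's start, 5′ to 3′ in the direction of the gene, in RefSeq on GRCm38.p6. Capitals mark matches, on either strand, to CCAAT (its reverse is ATTGG) or to TGACNNNGC, the core of the antioxidant response element to which Nfe2l1 binds. They lie at chr2:61711444-61711743 (plus strand) for Psmd14, chr3:95042565-95042864 (minus strand) for Psmd4, chr11:70525107-70525406 (plus strand) for Psmb6 and chr3:94886909-94887208 (minus strand) for Psmb4.
Psmd14: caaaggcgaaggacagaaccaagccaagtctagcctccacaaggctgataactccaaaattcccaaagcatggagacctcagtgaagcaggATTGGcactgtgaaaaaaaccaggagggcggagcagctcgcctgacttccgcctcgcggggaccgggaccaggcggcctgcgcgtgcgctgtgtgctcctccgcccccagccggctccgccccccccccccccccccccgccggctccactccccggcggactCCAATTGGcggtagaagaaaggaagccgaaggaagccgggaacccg
Psmd4: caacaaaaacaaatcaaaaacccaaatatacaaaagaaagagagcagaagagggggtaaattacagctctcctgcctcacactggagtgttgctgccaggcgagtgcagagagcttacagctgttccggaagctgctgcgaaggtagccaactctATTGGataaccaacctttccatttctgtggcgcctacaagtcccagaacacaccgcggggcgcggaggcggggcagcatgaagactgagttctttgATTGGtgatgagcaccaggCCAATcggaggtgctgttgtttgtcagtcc
Psmb6: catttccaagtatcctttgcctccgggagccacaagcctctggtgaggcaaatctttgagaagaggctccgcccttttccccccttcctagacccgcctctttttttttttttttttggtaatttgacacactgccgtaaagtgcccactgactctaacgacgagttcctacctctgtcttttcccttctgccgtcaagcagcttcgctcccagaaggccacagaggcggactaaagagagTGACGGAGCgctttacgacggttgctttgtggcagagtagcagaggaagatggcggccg
Psmb4: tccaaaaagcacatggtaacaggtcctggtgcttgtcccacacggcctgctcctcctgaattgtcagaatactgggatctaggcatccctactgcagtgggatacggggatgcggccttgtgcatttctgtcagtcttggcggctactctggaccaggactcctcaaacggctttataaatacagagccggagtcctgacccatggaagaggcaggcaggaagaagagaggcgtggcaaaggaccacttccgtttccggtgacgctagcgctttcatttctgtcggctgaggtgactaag

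Psmd14 and Psmd4 each held 3 CCAAT matches, of which 2 in Psmd14 overlap. Psmb6 held a TGACNNNGC match that begins 9 bases before the start, and Psmb4 held neither motif. Over the 42 members with a promoter entry, CCAAT was found in 16 (38.1%, against 41.1% of 27025 genes), TGACNNNGC in 5 (11.9%, against 14.0%), the hypoxia response core ACGTG in 8 (19%, against 21.8%) and TGACGTCA in 0 (against 2.0%). CCAAT stood in 9 of the 14 members with an entry that rose with EHT-1864, in 1 of the 3 that fell and in 6 of the 25 that did not pass the test, a difference that was not tested. The 9 include Psmb9, below background on all arrays, and Psmc3ip, no subunit. The 5 members with TGACNNNGC were Psmb6, Psmc6, Psmd9, Psmd12 and Psme4, named after their sequence was searched. A match is a description of the letters and not a binding site.

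The comparison of hypoxia with normoxia, both with DMSO, asks how low oxygen alone bears on the proteasome genes. None of the 50 members passed the test (limma with Benjamini-Hochberg adjustment over all 22206 clusters, threshold 0.05), beside 2.11% of all clusters called higher and 0.563% called lower. The differences lay on 1 side, however: 43 of the 50 members and all 30 constitutive subunits were lower in hypoxia by value, with a median of -0.26 for the subunits and -0.16 for all members. Over all clusters the median was -0.03 and 55.7% were negative. The mean signal of the 30 subunits was 9.64 to 9.68 on the normoxia arrays and 9.40 to 9.43 on the hypoxia DMSO arrays, so the groups did not overlap.

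**Figure D1:**
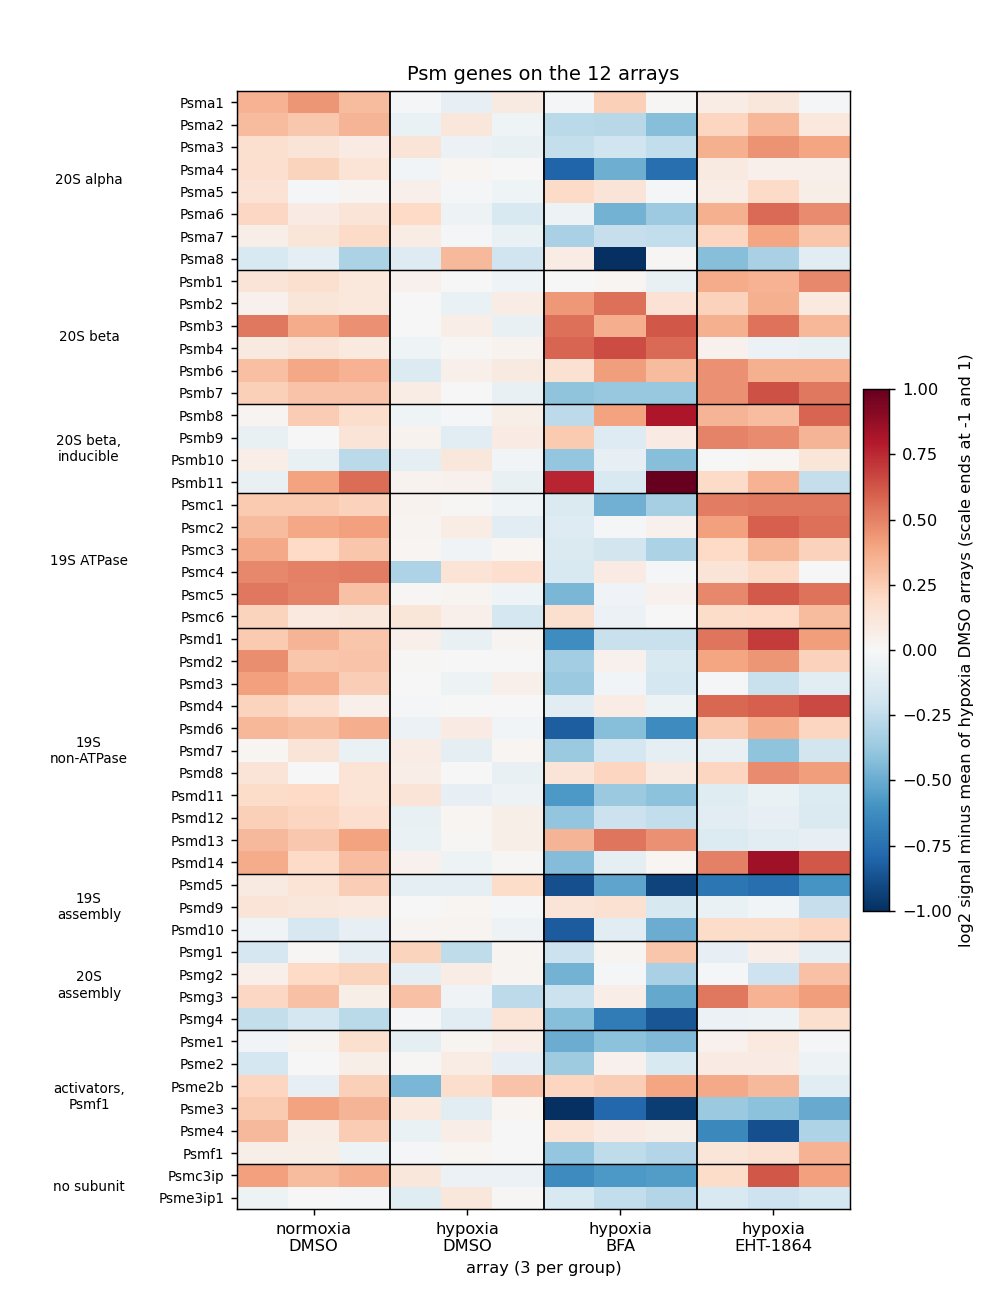
Log2 signal of the 50 members (rows, by role) on the 12 arrays (columns, 3 per group), as the difference from the gene's mean over the hypoxia DMSO arrays; the colours end at -1 and 1. The normoxia columns are red for most subunits, the BFA columns mix red and blue, and the EHT-1864 columns are red for many of the ATPases and the beta subunits.

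At an unadjusted p under 0.05 in limma, 17 members were lower and 0 were higher, beside 7.8% of all clusters lower and 8% higher. In 26 members all 3 hypoxia arrays lay below all 3 normoxia arrays (16.2% of all clusters), and in 1 member, the core assembly factor Psmg4, they lay above (14% of all clusters). The members were measured on the same arrays and are not replicates of a condition.

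Among the core subunits, Psmb3, a structural beta subunit, had the smallest adjusted p. It read 9.81, 9.64 and 9.73 in normoxia and 9.28, 9.34 and 9.21 in hypoxia, a difference of -0.45 ± 0.12 (SE; limma adjusted p = 0.0632). Its arrays did not overlap. The catalytic Psmb6 read 10.48, 10.57 and 10.53 against 10.04, 10.23 and 10.27 (-0.35; limma adjusted p = 0.153), and the catalytic Psmb7 differed by -0.27 (limma adjusted p = 0.221). Both were lower on every hypoxia array. Of the inducible forms, Psmb10, above background on all arrays of both groups, read 6.38 ± 0.17 and 6.47 ± 0.10 (SD, n = 3), while Psmb8 and Psmb9 were not above background.

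The cap ATPases, which unfold the substrate, were the group with the lowest median, -0.33, and 5 of the 6 had an unadjusted p under 0.05. Psmc4 read 10.29, 10.31 and 10.31 in normoxia and 9.50, 9.94 and 9.97 in hypoxia (-0.50 ± 0.14 SE; limma adjusted p = 0.0839). The first hypoxia array was the lowest of these, and all 3 lay below normoxia. Psmc2 differed by -0.37 and Psmc5 by -0.44, also without overlap. The other cap subunits had a median of -0.29 and the deubiquitinase Psmd14, which removes the ubiquitin chain before degradation, a difference of -0.29 ± 0.14 (SE; limma adjusted p = 0.339).

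The assembly factors lay on both sides, 3 of 7 above 0 by value, while 5 of the 6 activators and inhibitors lay below 0. Psmg4 read 6.79, 6.86 and 6.76 in normoxia and 7.01, 6.92 and 7.17 in hypoxia (0.23; limma adjusted p = 0.454), Psmg1 differed by 0.08 and Psmd10 by 0.09. Psmd5 differed by -0.16, Psmd9 by -0.11, Psmg2 by -0.16 and Psmg3, below background, is given no size. Psme3, an activator of the nuclear proteasome, differed by -0.33 and Psme4 by -0.22, without overlap, whereas Psme1 and Psme2, the activator pair induced by interferon, differed by -0.05 and 0.04. None of these passed the test.

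The 0 calls depended on which clusters and which error model entered the fit: 13 members were called lower among the clusters above background on all 12 arrays, 8 with a minimum signal, 12 with a variance trend and 14 with array weights, and 0 after quantile normalization or median subtraction. The share of all clusters called in each of these runs is not given here, so the counts are not read as a result about the members. The 30 subunits were lower by value in every alternative run except 3 (quantile normalization, without the second normoxia array, without the second hypoxia DMSO array), in which 29 were.

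**Figure D2:**
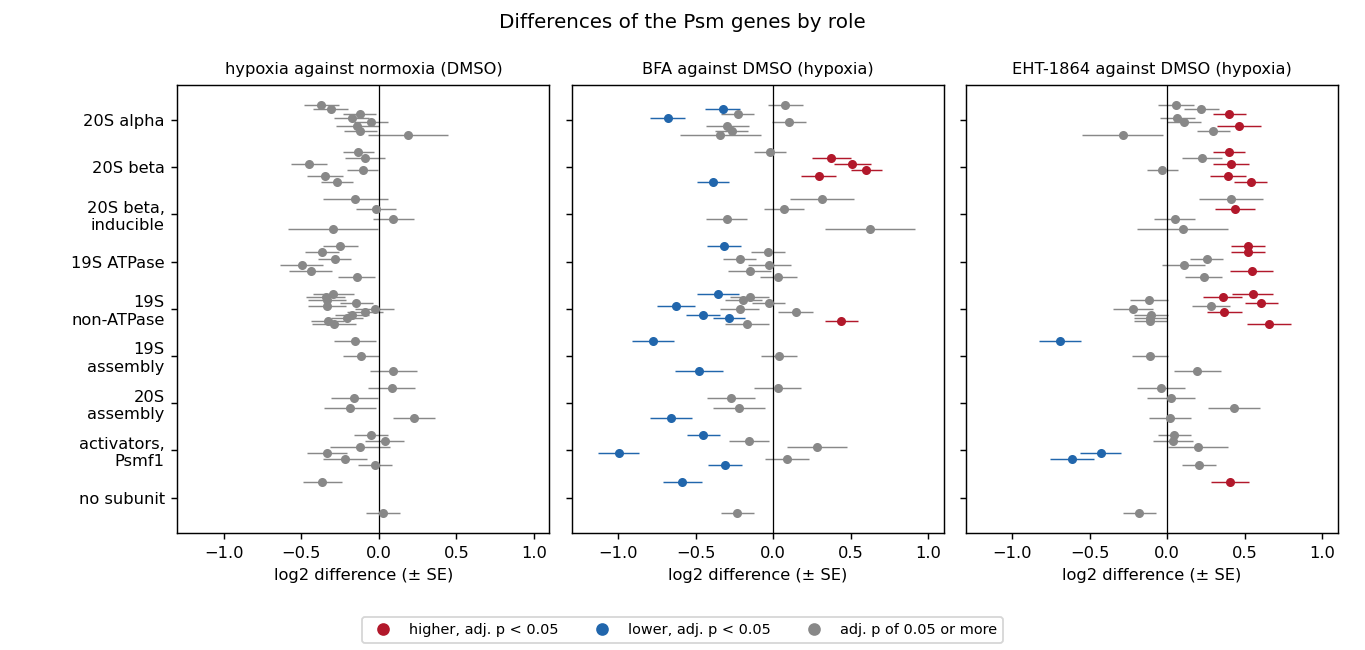
Log2 difference of each member (points, with SE bars) by role in 3 comparisons; red and blue points passed limma's adjusted threshold of 0.05 as higher and lower, grey ones did not. Hypoxia has no coloured point, BFA has 5 red and 15 blue, and EHT-1864 has 16 red and 3 blue.

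Around the proteasome, 41 of 51 listed pathway genes were measured, and in hypoxia 1 was called higher and 1 lower. Maff, a small partner of the Nfe2l proteins, was below background on all normoxia arrays and rose at least 1.41-fold (limma adjusted p = 3.70e-04). Uchl5, a deubiquitinase docked on the cap, read 8.62, 8.65 and 8.70 in normoxia and 8.19, 8.16 and 8.14 in hypoxia, and fell (-0.49; limma adjusted p = 0.0412). Nfe2l1 read 10.14, 9.85 and 9.86 in normoxia and 10.58, 10.60 and 10.46 in hypoxia, a difference of 0.60 ± 0.15 (SE; limma adjusted p = 0.0552) without overlap, which passed the threshold in 10 of the 21 alternatives. Nfe2l2 differed by 0.11, the maturation factor Pomp by -0.33 and Vcp, the p97 segregase that pulls proteins out of complexes, by -0.20, none past the threshold. Of 11 measured antioxidant targets, 2 rose (18.2%, beside 2.11% of all clusters): Hmox1 (1.92) and Slc7a11 (2.03). Of 15 measured interferon and antigen presentation genes, 0 passed limma's adjusted threshold, with 3 higher and 1 lower at an unadjusted p under 0.05.

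BFA split the members into those that rose and a larger number that fell. Against DMSO in hypoxia, 5 members rose, beside 26.1% of all clusters, and 15 fell, beside 24.6%. That is 10% and 30% of the members, so the share that fell was near that of all clusters. Of the clusters above background on all arrays, 20.8% rose and 37.7% fell, beside 12.2% and 31.7% of such members. The risers were the core subunits Psmb2, Psmb3, Psmb4 and Psmb6 and the cap subunit Psmd13. The members' median was -0.20 against 0.11 over all clusters and -0.16 over the 6557 clusters above background on all arrays, but it turned to 0.043 after quantile normalization, with 12 members higher and 5 lower. These counts stand without the share of all clusters called after quantile normalization, so they are not read as a result about the members.

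Of the 6 measured constitutive beta subunits, 4 rose, 1 fell and 1 did not pass the test. The calls were 66.7% and 16.7%, beside 26.1% and 24.6% of all clusters. Psmb4, a structural subunit of the inner ring, read 9.07, 9.12 and 9.15 with DMSO and 9.70, 9.77 and 9.68 with BFA, a rise of 0.60 ± 0.10 (SE; limma adjusted p = 3.27e-04). Its BFA arrays were the 3 highest of all 12. Psmb3 read 9.28, 9.34 and 9.21 against 9.83, 9.64 and 9.89 (0.51 ± 0.12 SE; limma adjusted p = 0.00287), with all BFA arrays above all DMSO arrays in hypoxia. Psmb2 rose by 0.38 (limma adjusted p = 0.0258) and the catalytic Psmb6 by 0.29 (limma adjusted p = 0.0494). With BFA the means of Psmb3 and Psmb6 were 9.79 and 10.48, beside 9.73 and 10.53 in normoxia.

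The calls of Psmb2 and Psmb6 were near the threshold: of the 6 fits that left out a DMSO or BFA array of the hypoxia groups, 2 kept the call for Psmb2 and 1 for Psmb6, with adjusted p up to 0.0841 and 0.175; Psma2, Psmc1, Psmd1, Psmd10, Psmd12 and Psmf1 kept theirs in 1 to 3 of the 6, and the other 12 members in all 6. The catalytic Psmb7 went the other way. It read 9.95, 9.88 and 9.80 with DMSO and 9.47, 9.50 and 9.50 with BFA (-0.39 ± 0.10 SE; limma adjusted p = 0.00827), with no overlap. After quantile normalization Psmb7 differed by -0.13 and no longer passed. Of the inducible forms none passed: Psmb10 differed by -0.30, with 1 of 3 BFA arrays above background, and Psmb8 and Psmb9 were below background throughout.

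Of the 8 alpha genes, 2 fell (25%, beside 24.6% of all clusters): Psma2, a call lost under both other scalings, and Psma4. Psma4 read 9.41, 9.46 and 9.44 with DMSO and 8.64, 8.95 and 8.69 with BFA (-0.68 ± 0.11 SE; limma adjusted p = 2.94e-04), its lowest group of the 4. In the cap, 1 of 6 ATPases fell (Psmc1, -0.32), and of the 11 other subunits 4 fell (Psmd1, Psmd6, Psmd11, Psmd12) and Psmd13 rose. The falls were 16.7% of the ATPases and 36.4% of the other subunits. Psmd13 read 10.18, 10.26 and 10.30 with DMSO and 10.59, 10.78 and 10.70 with BFA (0.44 ± 0.11 SE; limma adjusted p = 0.00410). Psmd6, which like Psmd13 belongs to the lid of the cap, read 8.68, 8.82 and 8.71 against 7.91, 8.31 and 8.11, a fall of 0.63 on the log2 scale. Subunits of 1 complex thus moved to opposite sides, both without overlap. Psmd14 differed by -0.17 ± 0.14 (SE; limma adjusted p = 0.329).

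The 2 largest falls were outside the core and cap. Psme3 read 9.85, 9.64 and 9.77 with DMSO and 8.50, 8.97 and 8.80 with BFA, a fall of 1.00 ± 0.13 on the log2 scale (SE; limma adjusted p = 4.68e-05), or 1.99-fold. Psmd5, a chaperone of cap assembly, read 8.07, 8.08 and 8.35 against 7.29, 7.64 and 7.24 (-0.78 ± 0.14 SE; limma adjusted p = 4.39e-04). Neither overlapped. Psmg4 fell to below background on all 3 BFA arrays, at least 1.45-fold (limma adjusted p = 0.00130), and did not pass after quantile normalization.

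Psme1 fell (-0.45; limma adjusted p = 0.00391; not past after quantile normalization), as did Psmf1, an inhibitor of the core in the test tube (-0.31), and the cap chaperone Psmd10 (-0.48). Psme2 differed by -0.15 and Psme4, which caps the core without ubiquitin, by 0.09, neither past the threshold. Psmc3ip, no subunit, fell to below background, at least 1.16-fold. Psme2b, a close copy of Psme2, differed by 0.29 with 0 of 3 BFA arrays above background, and probes may not separate the pair.

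Under all 3 scalings (as deposited, quantile normalized, each array minus its median) the same 5 members rose, and 4 fell: Psma4, Psmd5, Psmd6 and Psme3. The other 11 falls passed only under 1 or 2 of them, and the members' median changed sign between scalings, but no member called on the deposited values had the opposite call after quantile normalization.

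**Figure D3:**
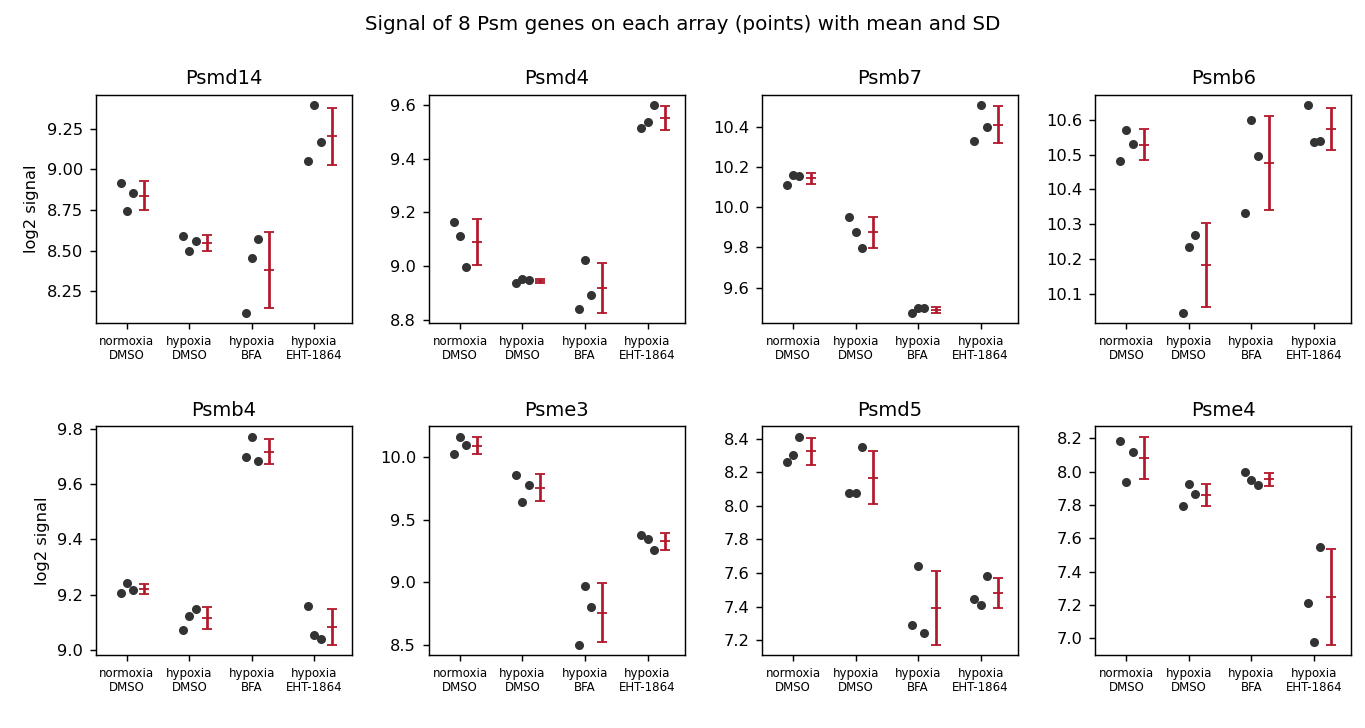
Log2 signal of 8 members on each array (points, 3 per group) with the group mean and SD beside them (red); the vertical axes differ and do not start at 0. Psmd14, Psmd4 and Psmb7 are highest with EHT-1864, Psmb4 with BFA, Psme3 and Psmd5 are low with both compounds and Psme4 with EHT-1864.

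Of the 41 pathway genes, 10 rose and 16 fell with BFA (24.4% and 39%, beside 26.1% and 24.6% of all clusters and 20.8% and 37.7% of those above background on all arrays). Among the proteasome's partners, Fbxo7, which binds Psmf1, fell from 8.69, 8.82 and 8.73 to 7.52, 7.83 and 7.54 (-1.12; limma adjusted p = 5.61e-06), and Zfand2a, a stress-induced factor that binds the cap, rose from 9.83, 9.78 and 9.78 to 10.69, 11.18 and 10.97 (1.15; limma adjusted p = 1.24e-05). Usp14, a deubiquitinase on the cap, fell to below background, at least 1.32-fold. Pomp read 8.59, 9.11 and 8.94 with DMSO and 8.46, 8.57 and 8.39 with BFA (-0.40; limma adjusted p = 0.0260), and this call was lost under both other scalings and without hypoxia DMSO array 2 or 3 or BFA array 1 or 3 (adjusted p 0.0503 to 0.120).

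Of the ubiquitin enzymes and shuttles, the activating enzyme Uba6 rose (1.13), the receptor Sqstm1 rose (0.95) and Ubqln4 fell (-0.84). In the p97 list, Herpud1, a part of the endoplasmic reticulum's degradation machinery, read 10.49, 10.58 and 10.47 against 11.94, 12.15 and 12.11 and rose by 1.55 (limma adjusted p = 1.27e-06), with the p97 cofactors Faf1 (0.97) and Ufd1 (0.71); Vcp differed by -0.23 (limma adjusted p = 0.311). Of the regulators, Hsf2 (-1.12) and Stat3 (-1.01) fell, and the ligase subunit Fbxw7 passed as lower while below background on all BFA arrays, so no fold is given. Nfe2l1 read 10.65, 11.02 and 10.92 with BFA (0.31; limma adjusted p = 0.0976, past the threshold under both other scalings), and Nfe2l2 differed by -0.05. Among antioxidant targets 4 rose and 5 fell (36.4% and 45.5%, beside 26.1% and 24.6% of all clusters). Hmox1 (1.93), Srxn1 (1.63) and Cat (-1.05) were the clearest, and the 4 include Osgin1, below background on all 12 arrays. Among interferon and antigen presentation genes 5 rose and 3 fell (33.3% and 20%). The smallest adjusted p were those of Tapbp (0.81), Tap1 (lower, below background on all BFA arrays) and Irf1 (lower, above background on 1 of 3 BFA arrays). Of the interferon list's genes with higher values, only Tapbp, H2-K1 and H2-D1 were above background on any BFA array, so the 5 include genes below it.

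EHT-1864 moved the members mainly upward. Against DMSO in hypoxia 16 members rose, beside 13% of all clusters, and 3 fell, beside 17.4%, or 32% and 6% of the members. Of the 30 constitutive subunits 14 rose and 0 fell. The members' median was 0.20 (0.29 for the subunits) against 0.06 over all clusters and -0.06 over those above background on all arrays. The mean of the 30 subunits, 9.65 to 9.72 on the EHT-1864 arrays, lay above the hypoxia DMSO range of 9.40 to 9.43. It overlapped the normoxia range of 9.64 to 9.68.

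Among the cap subunits, 5 of 11 and 3 of 6 ATPases rose (45.5% and 50%, beside 13% of all clusters). Psmd14 read 8.59, 8.50 and 8.56 with DMSO and 9.05, 9.40 and 9.17 with EHT-1864 (0.66 ± 0.14 SE; limma adjusted p = 0.00353). Psmd4, the receptor that binds ubiquitin chains, read 8.94, 8.95 and 8.95 against 9.52, 9.54 and 9.60 (0.61 ± 0.11 SE; limma adjusted p = 9.71e-04). All EHT-1864 arrays of both genes lay above every other array, normoxia included. Psmd1, a scaffold of the cap, read 9.45, 9.33 and 9.43 against 9.94, 10.10 and 9.82 (0.55 ± 0.13 SE; limma adjusted p = 0.00742), and the ATPase Psmc5 read 8.31, 8.32 and 8.25 against 8.78, 8.91 and 8.83 (0.55 ± 0.14 SE; limma adjusted p = 0.0103). Neither gene overlapped with DMSO. The ATPases Psmc1 and Psmc2 each rose by 0.52, and Psmd2 and Psmd8 also rose.

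In the core, 4 of the 6 constitutive beta subunits rose (66.7%, beside 13% of all clusters): Psmb1, Psmb3, Psmb6 and Psmb7. Psmb7 read 9.95, 9.88 and 9.80 with DMSO and 10.33, 10.51 and 10.40 with EHT-1864 (0.54 ± 0.10 SE; limma adjusted p = 0.00204), its highest group of the 4. Psmb6 read 10.04, 10.23 and 10.27 against 10.64, 10.54 and 10.54 (0.39 ± 0.12 SE; limma adjusted p = 0.0218), a call lost without the first hypoxia DMSO array (adjusted p = 0.0912) or the first EHT-1864 array. Psmb3 kept its call in 4 of the 6 fits without an EHT-1864 or hypoxia DMSO array, Psma3 in 5 and Psma6, Psmb9, Psmc3ip, Psmd2 and Psmd8 in 1 to 3. Of the alpha genes, 25% rose, namely Psma3 and Psma6 (0.40 and 0.46). Psmb9 passed the test but was below background on all 12 arrays, so no size is given; Psmb8 was likewise below it and Psmb10 differed by 0.05. Psmc3ip, no subunit, rose by 0.40.

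The 3 falls with EHT-1864 were outside the core and cap. Psmd5 read 8.07, 8.08 and 8.35 with DMSO and 7.44, 7.41 and 7.58 with EHT-1864 (-0.69 ± 0.14 SE; limma adjusted p = 0.00219). Psme4 read 7.80, 7.93 and 7.86 against 7.21, 6.98 and 7.55 (-0.61 ± 0.14 SE; limma adjusted p = 0.00606). Neither overlapped. Psme3 fell from 9.85, 9.64 and 9.77 to 9.38, 9.34 and 9.25 (-0.43; limma adjusted p = 0.0261), a call lost after median subtraction (adjusted p = 0.0529) and in 4 of 6 fits without an array. Psme1 and Psme2 differed by 0.05 and 0.04, and no Psmg gene passed the test. Under all 3 scalings 15 members rose and 2, Psmd5 and Psme4, fell.

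**Figure D4:**
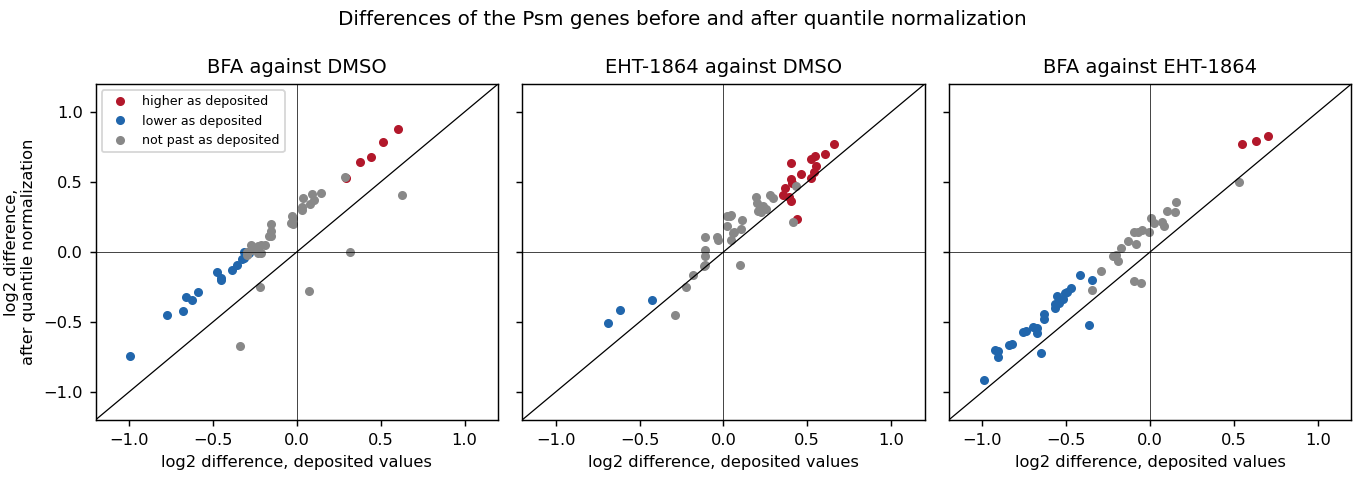
Log2 difference of each member from the deposited values (horizontal) against that after quantile normalization of the 12 arrays (vertical) for BFA, EHT-1864 and their comparison; the line marks equal values and colours give the call on the deposited values. With BFA most members lie above the line and the median moved from -0.20 to 0.043, while the red points of EHT-1864 stay above 0 on both axes.

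Of the pathway genes 12 rose and 4 fell with EHT-1864 (29.3% and 9.76%, beside 13% and 17.4% of all clusters). All 11 measured partners of the proteasome had positive values, of which 5 passed: Zfand5, an activator of the particle (0.81; limma adjusted p = 1.25e-04), Uchl5 (0.73; limma adjusted p = 5.22e-04) and Txnl1, a thioredoxin on the cap (0.68; limma adjusted p = 0.00164) were the clearest. Uchl5 read 8.97, 8.90 and 8.81, above its normoxia arrays. Sqstm1 read 10.07, 10.08 and 10.05 with DMSO and 11.02, 10.90 and 10.94 with EHT-1864 (0.89; limma adjusted p = 3.62e-05), with the shuttles Ubqln1 (0.55) and Rad23b (0.38) also higher. In the p97 list Faf1 rose (0.99) and Nsfl1c fell (-0.37). Of the regulators Foxo4 (-0.91) and Keap1 (-0.86) fell and Mafg rose (0.81).

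Nfe2l1 read 10.46, 10.04 and 10.46 with EHT-1864 (-0.23), Nfe2l2 differed by 0.32, Pomp by 0.26 and Vcp by 0.37, and none of these 4 passed. Of the antioxidant targets 2 rose and 7 fell (18.2% and 63.6%, beside 13% and 17.4% of all clusters). Among those that fell were Gclc (-1.35), Slc7a11 (-1.66, above background on 2 of 3 EHT-1864 arrays) and Gsr (-0.85). Of the interferon and antigen presentation genes 2 rose and 2 fell (13.3% each): Ifit3 rose at least 3.05-fold from below background, and H2-K1 (-0.79) and Irf1 (-0.53) fell. Genes below background were not left out of these counts.

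The comparisons with each compound share the 3 hypoxia DMSO arrays, so the compounds were also set against each other, which tests the difference between their effects. With BFA 25 members were lower than with EHT-1864, beside 19.6% of all clusters, and 3 were higher, beside 16.9%. The members' median was -0.35 against 0.06 over all clusters and -0.09 over those above background on all arrays, of which 33.9% were lower and 23.2% higher. Among the constitutive subunits 17 were lower and 2 higher. Under all 3 scalings 21 members were lower and 3 higher.

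The catalytic Psmb7 showed the widest gap of a subunit, 9.47, 9.50 and 9.50 with BFA and 10.33, 10.51 and 10.40 with EHT-1864 (-0.92 ± 0.10 SE; limma adjusted p = 1.54e-05). On the deposited values it fell with BFA and rose with EHT-1864, so the compounds lay on either side of DMSO. After quantile normalization its difference with BFA was -0.13 and did not pass. Psmd1 (-0.91 ± 0.13 SE; limma adjusted p = 1.29e-04) and Psmd6 (-0.91 ± 0.12 SE; limma adjusted p = 6.37e-05) were as far apart, and Psmd14 differed by -0.83 and Psmc1 by -0.84. Psmc3ip was below background with BFA and at least 1.54-fold lower. Psme1 (-0.49) and Psme3 (-0.57) were lower with BFA. Psmb9 and Psmg3 passed as lower while below background on all arrays, and both are among the 21 lower under all 3 scalings. Psmb9 and Psmd11 kept their call in 2 and 3 of the 6 fits that left out an array of either compound, and the other 26 members in all 6.

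The 3 members higher with BFA were Psme4, Psmb4 and Psmd13. Psme4 read 8.0, 7.95 and 7.92 with BFA and 7.21, 6.98 and 7.55 with EHT-1864 (0.71 ± 0.14 SE; limma adjusted p = 0.00155). Psmb4 differed by 0.63 ± 0.10 (SE; limma adjusted p = 2.69e-04) and Psmd13 by 0.55 ± 0.11 (SE; limma adjusted p = 0.00115). None of the 3 overlapped. Psmb6 differed by -0.10 ± 0.12 and Psmd5 by -0.09 ± 0.14 (SE), so for these a difference between the compounds was not detected. Psmb8, Psmb10 and Psme2 did not pass either.

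Around the proteasome 6 pathway genes were higher and 20 lower with BFA than with EHT-1864 (14.6% and 48.8%, beside 16.9% and 19.6% of all clusters and 23.2% and 33.9% of those above background on all arrays). Of the partners, 8 of 11 were lower, led by Fbxo7 (-1.55), Zfand5 (-0.97) and Usp14, which was below background with BFA and at least 1.41-fold lower. Pomp (-0.67; limma adjusted p = 0.00171) and Vcp (-0.60; limma adjusted p = 0.0216) were lower, Vcp not past after quantile normalization (adjusted p = 0.0906) or without the first BFA array (adjusted p = 0.0700) or EHT-1864 array 2 or 3. Nfe2l1 was higher (0.54; limma adjusted p = 0.0123; 0.0539 without the second EHT-1864 array) and Nfe2l2 differed by -0.37 without passing. Of the shuttles and enzymes, Uba6 was higher (1.33) and Ubqln1 (-0.68) and Ubqln4 (-1.07) lower. In the p97 list Herpud1 (1.42) and Ufd1 (0.62) were higher, and Ngly1 passed while below background on all arrays of both groups. Of the regulators Hsf2 (-1.10), Stat3 (-0.85) and Maff, below background with BFA and at least 1.21-fold lower, had the smallest adjusted p. Of the antioxidant targets 5 were higher and 2 lower (45.5% and 18.2%), genes below background included. Slc7a11 (2.93, above background on 2 of 3 EHT-1864 arrays), Srxn1 (higher, above background on 1 of 3 EHT-1864 arrays) and Hmox1 (1.56) had the smallest adjusted p. Of the interferon and antigen presentation genes 4 were higher and 2 lower (26.7% and 13.3%). H2-K1 was higher (1.19) and Ifit3 at least 1.66-fold lower. H2-D1 passed as higher with 1 of 3 BFA arrays and 0 of 3 EHT-1864 arrays above background, so no fold is given.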

How the data were processed

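RNA of 12 samples was measured on Clarion S arrays, 4 groups of 3. The deposited values are log2 signals, 1 per transcript cluster and array, made by the authors by RMA in Affymetrix Expression Console, per the submitters' processing notes; versions, settings and build are not given in the sources used here. RMA brings the arrays to a common scale, which hides any shift in the total RNA of a cell. Even so, the spread of the deposited signals differed between groups.

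Of 28846 rows, 6640 controls were left out and 22206 clusters were fitted without a filter. Symbols came from the platform annotation (19572 clusters with 1, 2634 with none); each member had 1 cluster. All 12 arrays entered 1 limma fit (version 3.58.1, R 4.3.3; lmFit, eBayes, residual df 8, prior df 4.87), with Benjamini-Hochberg adjustment over all clusters and a threshold of 0.05. The script was tested on simulated data. The number of arrays limits the precision.

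"At least N-fold" sets the brighter group's mean against, in the dim group, the mean of the background level of each array, or the probe's own signal where higher. The main fit did not pair arrays by number. Correlations of deviations between same-numbered arrays ran from -0.18 to 0.17, 1 of 18 over 0.1. With so few arrays per group, these correlations cannot show whether arrays of the same number share a culture.

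Named in each comparison were the 4 members that rose most and the 4 that fell most among those called, always the catalytic and inducible subunits, Psmd14 and Psme1 to Psme4, and, of other lists, the 3 called genes with the smallest adjusted p and Nfe2l1, Nfe2l2, Pomp and Vcp. Other called members were added after their values were seen. Members, lists and tests were chosen with earlier results of these data known. Alternatives were other scalings, filters, error models, array subsets and a replicate block.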

Additional observations from a re-analysis of the deposited data

How the results depend on the processing

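Under hypoxia, 0 members were called lower as reported, 2 without the dimmest 25% of clusters, 8 with a log2 signal of at least 6 on at least 3 arrays, 13 above background on all 12 arrays (an alternative chosen after seeing the data), 12 with a trend and robust fit, 14 with array weights, 2 with only the 6 arrays compared and 0 to 2 without single arrays. For BFA, 12 were higher and 5 lower after quantile normalization, where the median turned to 0.043, 3 and 9 with only the 6 arrays compared, and 3 to 5 higher and 9 to 16 lower without single arrays. For EHT-1864, 10 to 18 were higher and 2 to 3 lower without single arrays, the fewest higher without the third hypoxia DMSO array. Between the compounds the ranges were 3 to 4 and 23 to 26. Of all clusters, the fits without single arrays called 228 to 629 higher and 23 to 269 lower for hypoxia. The ranges were 4635 to 5862 and 4903 to 5542 for BFA, and 1939 to 3492 and 3047 to 4314 for EHT-1864. Between the compounds they were 3128 to 3886 and 3772 to 4394. For the other runs the share of all clusters called is not given here, so their member counts are not read against it. Whether array numbers pair the samples is not known. With the replicate block, calls were 0 and 0 for hypoxia, 4 and 13 for BFA, 15 and 3 for EHT-1864 and 3 and 24 between the compounds. Of 12 arrays, 4 correlated best with their own number. Averaging clusters gave no separate value, since each member has 1. A single array left out leaves its group with 2. Low signals limit Psma8, Psmb8, Psmb9, Psmb11 and Psmg3.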
